A study of Mus musculus with 7 samples.

Results

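Interferon-stimulated genes were read out in lymphatic endothelial cells (LECs), the cells that line lymphatic vessels, from the mouse ear. The list held 42 genes, taken by symbol with no threshold on a measured value, out of 26583 genes in the count table. It comprised 4 receptor chains, 7 regulators, 3 RNA sensors, 18 effectors of the type I-like kind and 10 gamma-induced guanosine triphosphatases of the Gbp and Irg families. All 42 were in the table, 40 had a count in at least 1 library, and 36 had enough counts to be tested. The 6 that were not tested were Oasl2, Oas1a, Oas2, Oas3, Mx1 and Mx2.

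Bulk RNA was sequenced from 4 libraries of LECs from BPC melanomas of the ear pinna (tumour in the plots) and 3 libraries of LECs from naive ear pinna. The melanoma libraries were labelled BrafCA/+ and Cre+, with replicates 1 and 2 male and replicates 3 and 4 female. Naive libraries were labelled BrafCA/+ and Cre-, with replicate 1 pooled from both sexes, replicate 2 female and replicate 3 male. Naive replicate 2 also pooled tissue labelled Braf+/+ and Cre+, so Cre was not absent from every naive sample. In the BPC model, Cre is known to switch on the oncogenic BrafCA allele. The sources used here give neither the promoter that drives Cre nor any inducing agent, the age of the mice, the sort or the mice per library. P-values therefore reflect only how much these libraries scatter.

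Interferons are secreted alarm signals. Type I interferons bind IFNAR1 and IFNAR2, and interferon gamma, made mainly by T cells and natural killer cells, binds IFNGR1 and IFNGR2. Type I receptors signal through a complex that contains STAT2 and IRF9 and binds the interferon-stimulated response element (ISRE). Signalling from the gamma receptor acts at the gamma-activated site (GAS) and induces IRF1, a factor that itself binds ISRE-like sequence. The genes induced fall into partly overlapping sets, and Gbp and Irg genes respond to both kinds of interferon.

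Library totals ran from 52940832 to 62947508 counts in melanoma and from 59735153 to 63032175 counts in naive skin. At that depth 3 counts, the limit that a count of 0 allows, equalled 0.0479 to 0.0521 CPM (counts scaled to a common library size), which covers counting error only. All 8 lymphatic endothelial markers, among them Prox1, Lyve1 and Flt4, had counts in every library, with a summed level of 8736 to 11760 CPM in melanoma and 10690 to 13620 CPM in naive skin. Summed markers of several other cell types were higher in melanoma. Those of macrophages and dendritic cells gave 129 to 431 CPM in melanoma and 40.2 to 51.3 CPM in naive skin, with 3 of 9 tested markers past the threshold. Those of fibroblasts gave 1730 to 18180 CPM in melanoma and 607 to 1189 CPM in naive skin, with 1 of 8 past the threshold. Those of melanocytes gave 15.4 to 119 CPM in melanoma and 1.19 to 13.2 CPM in naive skin, with 2 of 6 tested past the threshold. In that sum melanoma replicate 1 and naive replicate 3 lay close together. Of the 6 melanocyte markers, 5 had a higher mean in melanoma and 1, Kit, a lower one. Blood endothelial markers summed to 746 to 924 CPM in melanoma and 542 to 656 CPM in naive skin. Plvap made up most of that sum, and the markers disagreed. Of the 4 tested, 3 had a log2 fold change (melanoma over naive) above 0 and 1 below 0. The latter was Emcn, with a mean of 98.8 CPM in melanoma and 199 CPM in naive skin and no overlap. The sums overlapped for keratinocytes (29.4 to 103 CPM in melanoma and 3.06 to 40.4 CPM in naive skin) and for B and plasmacytoid dendritic cells (598 to 632 CPM in melanoma and 619.6 to 724 CPM in naive skin). Their part in the results was not tested. A tag in the sample descriptions, read as the sequencing lane, was 6 for melanoma replicates 1, 2 and 4, 7 for naive replicates 1 and 2, and 8 for melanoma replicate 3 and naive replicate 3, so that lane and tissue can be told apart only through the last pair.

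Promoter sequence was searched for the elements named above. In the RefSeq promoter table (build GRCm38.p6), 33 of the 42 genes had an entry. The 250 bases before each start were searched on both strands for an ISRE core, a pair of GAAA tetramers with any 2 bases between them, and for a GAS core, TTCNNNGAA, which reads the same on both strands. An ISRE core stood in 16 of the 33 genes (48.5%), against 936 of all 27025 genes in the table (3.46%). By list, it stood in 7 of 8 gamma-induced genes (87.5%), 7 of 13 type I-like effectors (53.8%), 2 of 6 regulators, and none of the 4 receptors or 2 sensors with an entry. A GAS core stood in 10 of the 33 genes (30.3%), against 2197 of 27025 (8.13%), and in 4 of the 8 gamma-induced genes. Both cores occurred together in Gbp5, Gbp7, Igtp, Irgm2, Bst2 and Oas1a. A match is a string of letters and not a measured binding site. The stretches below carry an ISRE core in genes of the Gbp and Irg families, which all peaked in the same library, in a pair of type I-like effectors for comparison, and a GAS core in Irf1, the member with the smallest p-value. Each is written 5′ to 3′ on the strand of the gene with the core in capitals, and a core on the opposite strand reads as a pair of TTTC tetramers.
Gbp7, chr3:142530258-142530317, plus strand: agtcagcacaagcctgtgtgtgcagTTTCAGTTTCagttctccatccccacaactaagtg
Gbp3, chr3:142559974-142560033, plus strand: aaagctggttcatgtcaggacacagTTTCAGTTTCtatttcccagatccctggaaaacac
Igtp, chr11:58199497-58199555, plus strand: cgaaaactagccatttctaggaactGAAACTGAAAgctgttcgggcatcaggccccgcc
Irgm2, chr11:58214888-58214947, plus strand: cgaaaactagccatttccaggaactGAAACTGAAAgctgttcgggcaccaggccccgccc
Isg15, chr4:156200856-156200915, minus strand: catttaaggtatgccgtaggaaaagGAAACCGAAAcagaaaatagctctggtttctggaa
Ifit1, chr19:34640760-34640819, plus strand: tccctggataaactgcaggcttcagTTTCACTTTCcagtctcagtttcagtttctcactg
Irf1, chr11:53769899-53769957, plus strand: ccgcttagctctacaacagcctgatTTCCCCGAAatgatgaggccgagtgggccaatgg
Isg15 and Gbp3 held further ISRE cores that overlap the one shown, and Ifit1 a further core beside it. The core of Gbp7 lay 53 to 44 bases before the gene's start, that of Igtp 34 to 25 bases before it and the GAS core of Irf1 90 to 82 bases before it.

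None of the 36 tested interferon genes passed the threshold between melanoma and naive LECs, an adjusted p under 0.05 in edgeR's quasi-likelihood test (Benjamini-Hochberg, over all 13453 tested genes). Of all tested genes, 229 passed (1.7%), with 0.899% higher and 0.803% lower in melanoma. At an unadjusted p under 0.05, 3 of the 36 members (8.33%) stood out, Ifngr2 and Usp18 on the higher side and Irf1 on the lower side, against 16.9% of all tested genes (9.1% higher and 7.83% lower). The groups did not overlap for 2 members (5.56%), Ifngr2 and Irf1, against 18% of all tested genes (9.57% higher and 8.46% lower). Both shares were below the background. On counts simulated with each gene's own estimated scatter, the same test called 10 of 96 genes given a log2 fold change of 1 in either direction. It called 57 of 94 genes given a change of 3, and 5 of 12866 unchanged genes. Most changes of the smaller size were thus missed in the simulation. Its changed genes were drawn at random from all genes past the filter and were far fewer than the unchanged ones. It therefore does not measure how often a change in the interferon genes would be missed. DESeq2 called 1 member, Irf1, where it called 9.28% of all tested genes. No member was called by limma-voom with a quality weight for each library, which called 2% of all tested genes. None was called by limma on the deposited log2 values, which called 2.65%.

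Among the tested members, 23 had a log2 fold change (melanoma over naive) above 0 and 13 below 0, a share of 63.9% above 0 against 52.5% of all tested genes. Their median was 0.17, against 0.04 over all tested genes. The type I-like effectors and sensors gave a median of 0.30 over 15 genes and the gamma-induced genes a median of 0.18 over 10. In a bulk library, fewer cells of a type and less RNA per cell cannot be told apart.

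**Figure D1:**
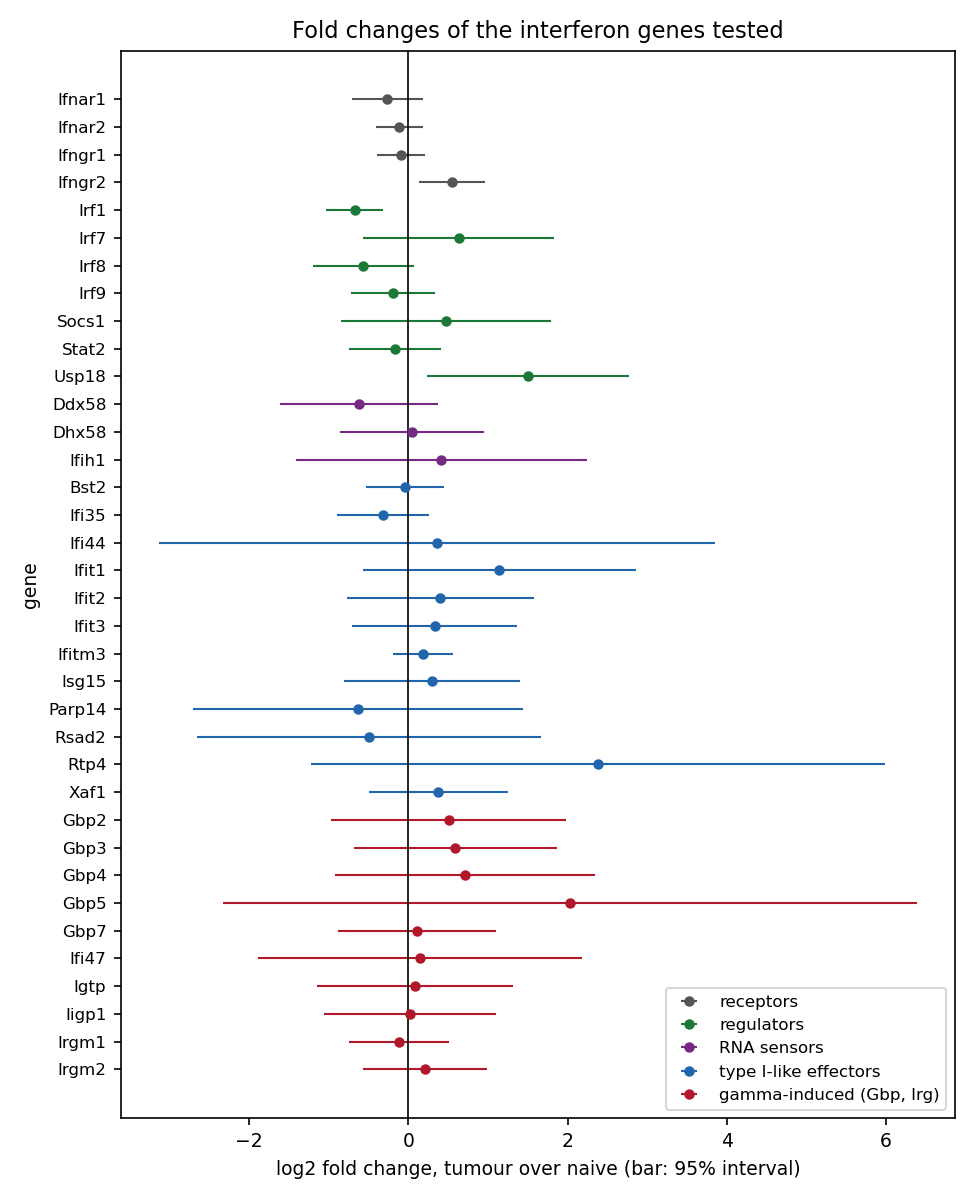
Log2 fold change (melanoma over naive) of the 36 tested interferon genes with its 95% confidence interval from edgeR, by list, with 4 melanoma and 3 naive libraries. Most intervals span 0. Those of Irf1, Ifngr2 and Usp18 do not, although no adjusted p was under 0.05.

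All 4 receptor chains were expressed in every library, and for 3 of them the ranges of the tissues overlapped. IFNGR2, the chain that brings the JAK2 kinase to the gamma receptor, was the exception. Ifngr2 (chromosome 16, 91547072 to 91565623, GRCm38) had 62.8, 81.9, 84.9 and 67.5 CPM in melanoma replicates 1 to 4, against 57.5, 46.0 and 48.9 CPM in naive replicates 1 to 3. Every melanoma library lay above every naive library, though melanoma replicate 1 and naive replicate 1 lay close together. The means were 74.2 ± 10.8 CPM in melanoma (SD, n = 4) and 50.8 ± 6.01 CPM in naive skin (SD, n = 3). The log2 fold change was 0.55 ± 0.18 (SE; 95% interval 0.13 to 0.96), with an unadjusted p of 0.0155 and an adjusted p of 0.172 in edgeR, so the difference did not pass the correction. On the scale of log2(CPM + 1), the difference was 0.78 within lane 8 (1 library each), 0.71 within females and 0.54 within males (2 melanoma libraries and 1 naive library each).

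Ifngr1, the chain of the same receptor that binds interferon gamma, had 155, 174, 161 and 135 CPM in melanoma, against 159, 178 and 161 CPM in naive skin. Ifnar1 had 196, 119, 131 and 125 CPM in melanoma, against 183, 179 and 152 CPM in naive skin. Ifnar2 had 173, 205, 199.9 and 188 CPM in melanoma, against 195, 233 and 193 CPM in naive skin. The ranges of all 3 overlapped, and the 3 log2 fold changes lay between -0.26 and 0. Melanoma replicate 1 held the highest Ifnar1 level of any library while the other 3 melanoma libraries lay below all naive ones.

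Irf1 had the smallest p-value of any member. It encodes a transcription factor that drives many Gbp and antigen presentation genes. Irf1 (chromosome 11, 53770014 to 53778374) had 135, 142, 112 and 132 CPM in melanoma, against 251, 187 and 186 CPM in naive skin. All 4 melanoma libraries lay below all 3 naive libraries, with melanoma replicate 3 the lowest. Its mean was 130 ± 13.0 CPM in melanoma (SD, n = 4) and 208 ± 37.2 CPM in naive skin (SD, n = 3). The log2 fold change was -0.67 ± 0.16 (SE; 95% interval -1.03 to -0.32), with an unadjusted p of 0.00213 and an adjusted p of 0.0746 in edgeR. DESeq2 gave an adjusted p of 0.00336, and over all alternatives tried the adjusted p ran from 0.00336 to 0.542. The difference on the log2(CPM + 1) scale was -0.73 within lane 8, -0.62 within females and -0.42 within males.

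Usp18 removes the ubiquitin-like protein ISG15 from its targets and damps signalling at IFNAR2. Its level was 13.2, 15.3, 34.2 and 36.6 CPM in melanoma, against 5.17, 15.5 and 5.58 CPM in naive skin. Naive replicate 2 reached the level of melanoma replicates 1 and 2, and the 2 female melanoma libraries were the highest. Usp18 averaged 24.8 ± 12.3 CPM in melanoma (SD, n = 4) and 8.77 ± 5.87 CPM in naive skin (SD, n = 3). This gave 1.5 ± 0.56 on the log2 scale (SE; 95% interval 0.23 to 2.77) with an adjusted p of 0.217 in edgeR.

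**Figure D2:**
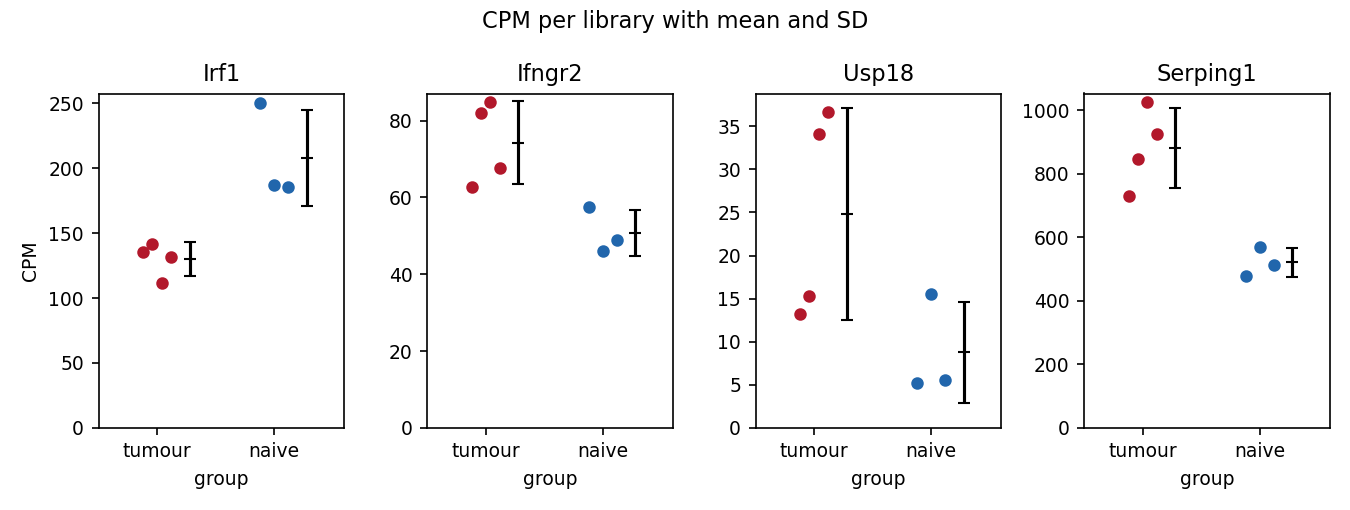
CPM of 4 genes in each library, melanoma (tumour) left of naive skin, with 1 point per library and a bar for the mean and SD beside each group (n = 4 and n = 3). Ifngr2 and Serping1 lie higher in melanoma and Irf1 lower with no overlap, whereas Usp18 overlaps through naive replicate 2.

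The remaining regulators overlapped between the tissues. Irf8, a factor of myeloid and B cell development, had 81.5, 49.4, 35.2 and 47.2 CPM in melanoma, against 81.0, 66.7 and 88.7 CPM in naive skin. Melanoma replicate 1 sat among the naive libraries and the other 3 melanoma libraries below them, while summed macrophage and dendritic markers were higher in melanoma. Irf9, the DNA-binding partner of STAT2, had 49.2, 76.6, 93.4 and 62.3 CPM in melanoma, against 74.9, 92.8 and 72.9 CPM in naive skin. Stat2 had 74.4, 59.6, 92.7 and 42.9 CPM in melanoma, against 68.5, 77.6 and 81.4 CPM in naive skin. Both factors were highest in melanoma replicate 3 and spread more widely among the melanoma libraries than among the naive ones. Irf7, the amplifier of type I interferon production, reached 28 and 35.6 CPM in melanoma replicates 1 and 3, against 9.71 and 9.61 CPM in replicates 2 and 4 and 10.8 to 17.6 CPM in naive skin. Socs1, an inhibitor of JAK kinases, spanned 5.57 to 22.2 CPM in melanoma and 5.58 to 10.7 CPM in naive skin.

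The 3 cytosolic RNA sensors were low and did not separate the tissues. Ifih1, which encodes the long-RNA sensor MDA5, had 18.0, 4.61, 5.81 and 3.86 CPM in melanoma, against 1.5, 9.60 and 7.09 CPM in naive skin. Ddx58, which encodes RIG-I, had 16.6, 14.3, 23.2 and 31.0 CPM in melanoma, against 14.7, 50.9 and 32.0 CPM in naive skin. Dhx58, their regulator LGP2, had 9.45, 11.6, 6.40 and 9.76 CPM in melanoma, against 9.98, 9.66 and 7.35 CPM in naive skin. The highest library was melanoma replicate 1 for Ifih1, naive replicate 2 for Ddx58 and melanoma replicate 2 for Dhx58.

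Among the type I-like effectors, Ifitm3 dominated. It encodes a membrane protein that blocks virus entry. Per kilobase of exon, Ifitm3 stood at 463 CPM in melanoma and 407 CPM in naive skin, above every other member. The next type I-like effectors on that scale were Bst2, at 33.9 CPM per kilobase in melanoma and 34.8 in naive skin, and Ifi35, at 28.5 in melanoma and 35.5 in naive skin. In CPM, Ifitm3 gave 250.5, 380.5, 349.6 and 276 in melanoma, against 290.2, 283 and 255 in naive skin. Melanoma libraries held both the lowest and the 2 highest values. The log2 fold change was 0.19 (95% interval -0.19 to 0.56, adjusted p = 0.66 in edgeR). About 10% of the 50-base stretches of Ifitm3 transcripts recur in transcripts of other annotated genes, so some of its reads could be split or misplaced.

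Bst2, or tetherin, which holds budding virus at the cell surface, had 29.1, 25.5, 34.2 and 33.5 CPM in melanoma, against 34.0, 33.0 and 27.2 CPM in naive skin. Ifi35 had 32.5, 41.9, 63.1 and 59.3 CPM in melanoma, against 63.7, 67.3 and 52.8 CPM in naive skin. For both, the 2 male melanoma libraries were among the lowest 3 of the 7. Isg15 itself, the ubiquitin-like modifier, had only 6.77, 6.10, 11.4 and 6.92 CPM in melanoma, against 5.46, 7.94 and 5.58 CPM in naive skin.

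The Ifit genes, which encode proteins that bind foreign RNA ends, varied more among libraries than between tissues. Ifit1 had 31.6, 14.1, 52.3 and 16.2 CPM in melanoma, against 13.0, 23.6 and 2.13 CPM in naive skin, a log2 fold change of 1.14 with an adjusted p of 0.518 in edgeR. Its 95% interval, -0.57 to 2.86, covers both a lower level in melanoma and a several-fold higher one. Ifit2 had 50.7, 19.4, 57.9 and 11.8 CPM in melanoma, against 26.9, 22.96 and 29.5 CPM in naive skin. For both genes melanoma replicates 1 and 3 were the highest 2 of the 7 libraries. Ifit3 spanned 8.65 to 14.2 CPM in melanoma and 5.09 to 13.2 CPM in naive skin, and 51.2% of its 50-base stretches recur in other genes, most of them in Ifit3b, so its level is uncertain.

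Rtp4, a chaperone of receptors, had the highest fold change of any tested member and one of the least precise. It gave 5.03, 1.26, 9.86 and 6.02 CPM in melanoma, against 0, 2.41 and 0.78 CPM in naive skin. The groups overlapped through melanoma replicate 2, and the log2 fold change of 2.38 had a 95% interval of -1.22 to 5.98 and an adjusted p of 0.522 in edgeR. Rsad2, Ifi44, Parp14 and Xaf1 all stayed under 16 CPM in every library, and the ranges of melanoma and naive skin overlapped for each.

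The 6 untested members were at or near 0 in most libraries. Oasl2 had 285 counts in melanoma replicate 1 and 515 in replicate 4, with 0 and 1 in the other 2 melanoma libraries and 0 in every naive library. Oas1a had 91 and 118 counts in the same 2 melanoma libraries and 0 in the other 5, although 57.6% of its 50-base stretches recur in other genes, mostly Oas1g. Mx2 had 147 counts in melanoma replicate 1 and 112 in naive replicate 2, with at most 1 in each of the others. Mx1 had 1 count in all, and Oas2 and Oas3 had 0 in all 7 libraries. The counts of Oasl2, Oas1a and Mx2 thus came almost wholly from 2 libraries each.

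**Figure D3:**
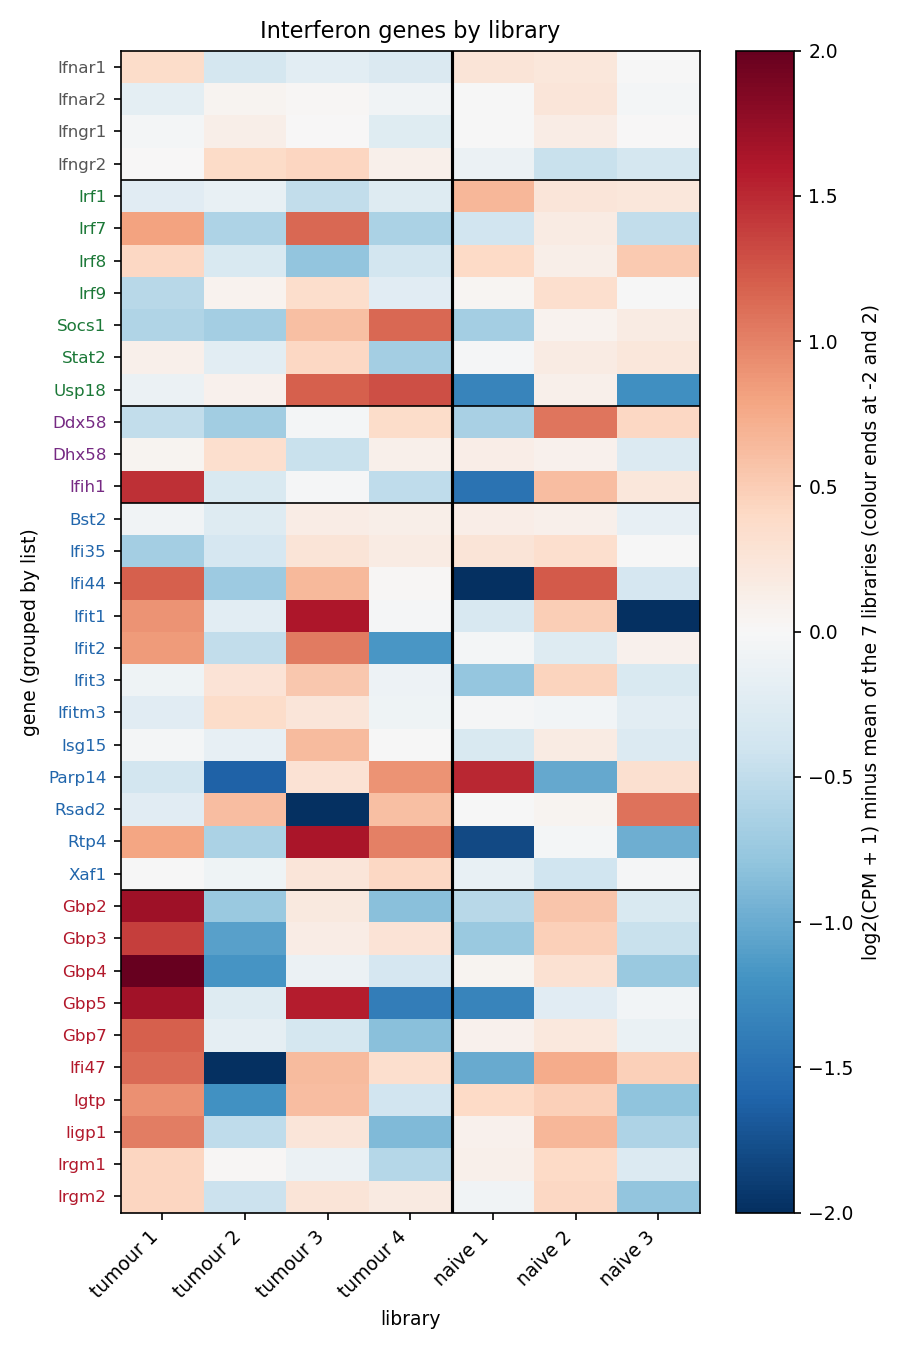
Colour gives log2(CPM + 1) of each of the 36 tested interferon genes in each library minus that gene's mean over the 7 libraries, with tumour (melanoma) libraries left of naive ones and genes grouped by list (receptors, regulators, sensors, type I-like effectors and gamma-induced genes, top to bottom; colour ends at -2 and 2). Melanoma replicate 1 holds the highest value for all 10 Gbp and Irg genes, and the type I-like genes show no such column.

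No gamma-induced gene separated the tissues, but all of them peaked in the same library. All 10 were highest in melanoma replicate 1, where 12.5% of all tested genes were highest. Naive replicate 2 was second for 8 of the 10 and melanoma replicate 3 for the other 2. The lowest library was melanoma replicate 2 or 4 for 9 of the 10. Of the 10 fold changes, 9 were above 0, from -0.11 to 2.03 on the log2 scale, and the smallest adjusted p was 0.685 in edgeR's test. Without melanoma replicate 1, 7 of the 10 lay below 0, and the median of the 10 was -0.29.

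Gbp4 encodes a guanylate-binding protein, one of the large GTPases that attack the vacuoles of intracellular microbes. Gbp4 (chromosome 5, 105115767 to 105139586) had 156, 16.1, 34.7 and 29.6 CPM in melanoma, against 39.2, 47.0 and 22.3 CPM in naive skin. Melanoma replicate 1 stood 5.26 times above the median of the other 3 melanoma libraries, which lay within or below the naive range. The log2 fold change was 0.71 with all libraries (95% interval -0.93 to 2.34, adjusted p = 0.712 in edgeR) and -0.43 without melanoma replicate 1. The annotated span of Gbp4 overlaps Gbp8 and Gbp9. About 7.7% of its 50-base stretches recur in other genes, most often Gbp11, so some of its reads could be misplaced.

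Gbp5, Gbp7, Gbp3 and Gbp2 lie in 1 cluster on chromosome 3, between 142493978 and 142638008. Gbp7 had 199, 76.2, 67.5 and 48.3 CPM in melanoma, against 92.4, 100.2 and 78.9 CPM in naive skin. Gbp2 had 82.0, 14.3, 28.4 and 13.4 CPM in melanoma, against 16.5, 36.6 and 19.8 CPM in naive skin. Gbp3 had 69.4, 11.7, 29.1 and 31.6 CPM in melanoma, against 15.1, 36.7 and 18.8 CPM in naive skin. In each, melanoma replicate 1 was far above the rest and naive replicate 2 led the naive libraries. Gbp5, which promotes inflammasome assembly, was low at 7.33, 1.18, 6.77 and 0 CPM in melanoma, against 0.05, 1.23 and 1.52 CPM in naive skin. Its log2 fold change of 2.03 had a 95% interval of -2.33 to 6.39.

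The immunity-related GTPases were likewise highest in melanoma replicate 1. Iigp1, whose protein loads onto parasite vacuoles, had 125, 42.6, 73.0 and 32.8 CPM in melanoma, against 65.1, 97.6 and 39.5 CPM in naive skin. Irgm1, a regulator that holds the effector Irg proteins inactive on the cell's own membranes, had 62.3, 46.8, 42.5 and 30.5 CPM in melanoma, against 49.6, 60.7 and 37.7 CPM in naive skin. The other regulators of that kind are Igtp (Irgm3) and Irgm2. Igtp spanned 10.7 to 50.2 CPM in melanoma and 14.5 to 36.6 CPM in naive skin, and Irgm2 spanned 20.7 to 38.5 CPM in melanoma and 15.9 to 38.0 CPM in naive skin. Ifi47 spanned 0.69 to 17.5 CPM in melanoma and 3.20 to 13.1 CPM in naive skin. Melanoma replicate 1 was the highest for all 5, but for Irgm1 and Irgm2 naive replicate 2 came within a few CPM of it. Irgm2 and Igtp overlap on the same strand of chromosome 11, so reads from their shared part cannot be told apart.

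Summed over the 10 genes, the level was 807, 241, 369 and 248 CPM in melanoma, against 343, 468 and 259.6 CPM in naive skin. The median log2(CPM + 1) difference from the naive mean was 1.10, -0.60, 0.34 and -0.53 in melanoma replicates 1 to 4, and 0.03, 0.51 and -0.28 in naive replicates 1 to 3. For the 15 tested type I-like genes the same medians were 0.10, -0.03, 0.34 and 0.12 in melanoma, and 0.03, 0.14 and -0.04 in naive skin. The library that stood out for the gamma-induced genes thus held only 1 of the 15 highest type I-like values, and melanoma replicate 3 held 6, where 13.5% of all tested genes were highest. Within lane 8 the gamma-induced median was 0.61, within males 0.71 and within females -0.45, against 0.07 over all libraries on the same scale. Melanoma replicate 1 is a male library and melanoma replicate 4 a female one, so these splits move with the libraries named above.

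**Figure D4:**
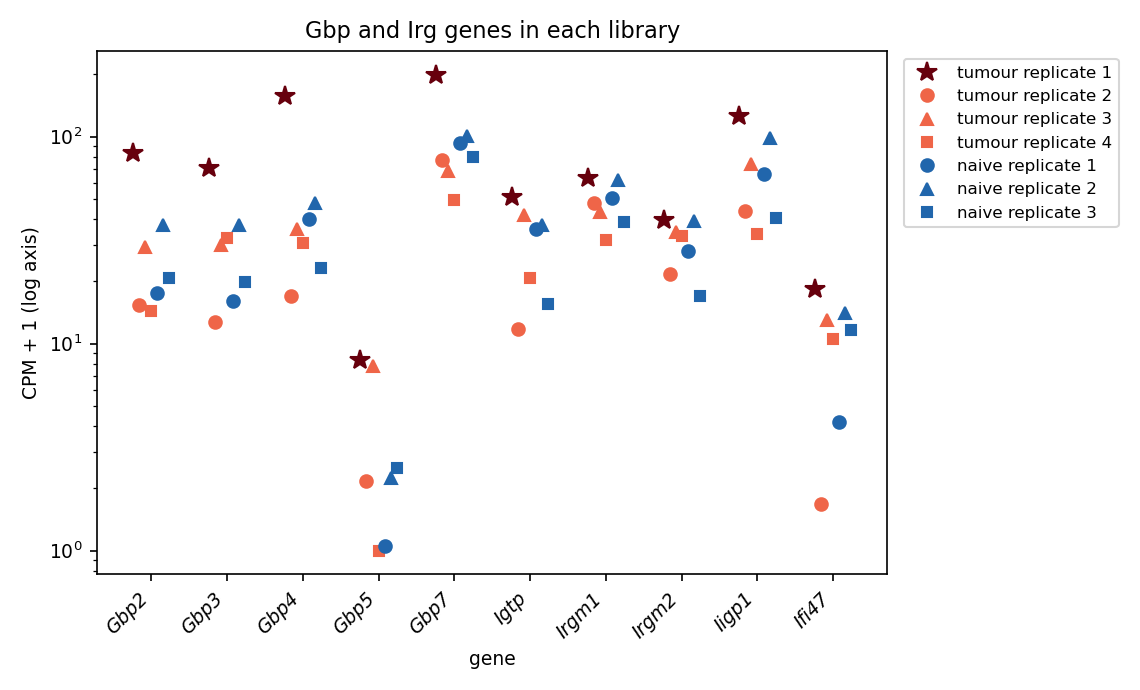
CPM + 1 on a log axis for the 10 gamma-induced genes in each library. Melanoma replicate 1 (star) is the highest point for all 10, and the other 3 melanoma libraries lie among or below the naive ones for most genes.

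No interferon transcript was detected. The 17 ligand genes found in the table, among them Ifnb1 and Ifng, had 0 counts in all 7 libraries, which limits each to under 3 counts per library. Several Ifna genes are near-identical copies, so reads from them could also have been lost in counting. Markers of T and natural killer cells, the main known sources of interferon gamma, summed to 0.811, 3.39, 2.67 and 11.6 CPM in melanoma replicates 1 to 4, against 5.69, 0.174 and 3.35 CPM in naive skin. Of the 10 such markers, 8, 8, 9 and 6 were at 0 in melanoma replicates 1 to 4 and 8 in each naive library, and Cd3g, Cd8a, Ncr1 and Gzmb were at 0 in every library. The sums came mostly from Prf1, which encodes perforin, at 0.0166, 3.38, 2.67 and 9.06 CPM in melanoma, against 5.67, 0.122 and 3.28 CPM in naive skin. In melanoma replicate 1 the sum came mostly from Klrb1c, a natural killer cell receptor, at 0.794 CPM. The part of such cells in the gamma-induced levels was not tested.

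Of the other genes of the pathway, 118 in the table and 86 tested, 1 passed the threshold, on the higher side, and none on the lower side, no larger a share than the 1.7% of all tested genes. Their median log2 fold change was 0.15. The gene that rose was Serping1, the inhibitor of complement C1, with 729, 846, 1025 and 926 CPM in melanoma, against 478, 571 and 514 CPM in naive skin. Every melanoma library lay above every naive one, and the log2 fold change was 0.76 ± 0.15 (SE; adjusted p = 0.0426 in edgeR). Over the 7 fits that left out 1 library, the adjusted p ran from 0.0355 to 0.175. The call was lost in 6 of them, and held only without melanoma replicate 1. With the lane tag as a term the adjusted p was 0.454, the highest of all alternatives, which began at 5.5e-06. Fibroblast markers, summed above, were also higher in melanoma, and their part was not tested.

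Icam1, the adhesion molecule and the other most abundant gene of the gamma-responsive list, had 797, 711, 549 and 305 CPM in melanoma, against 1268, 1509 and 1168 CPM in naive skin. The groups did not overlap, and the log2 fold change of -1.15 had an adjusted p of 0.0904 in edgeR. Jak1, the kinase shared by both receptor types, averaged 428 ± 101 CPM in melanoma (SD, n = 4) and 436 ± 65.9 CPM in naive skin (SD, n = 3). Socs3, a feedback inhibitor of cytokine receptors, averaged 494 ± 114 CPM in melanoma and 685 ± 43.1 CPM in naive skin. Tmem173, which encodes the DNA sensing adaptor STING, averaged 107 ± 29.8 CPM in melanoma and 107 ± 30.3 CPM in naive skin, and Tbk1, the kinase it activates, 63.4 ± 11.9 CPM in melanoma and 95.1 ± 11.3 CPM in naive skin. Ifitm2 averaged 371 ± 90.5 CPM in melanoma and 310 ± 30.9 CPM in naive skin, and Tor3a 93.6 ± 20.9 CPM in melanoma and 129 ± 20.5 CPM in naive skin. None of these 7 passed the threshold.

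Other genes known to respond to interferon gamma showed the library pattern of the Gbp and Irg genes in part. Of 21 tested, 10 were highest in melanoma replicate 1, where 12.5% of all tested genes were highest. A further 4 were highest in melanoma replicate 3, and 2, 3 and 2 in naive replicates 1 to 3. Among the 10, Gbp8 and Cxcl10 had at most 2 counts in each of the other melanoma libraries. Gbp6 had 64.4, 0.82, 15.1 and 4.19 CPM in melanoma, against 31.1, 18.4 and 11.2 CPM in naive skin. The paired T cell-specific GTPases Tgtp1 and Tgtp2, members of the Irg family, had 38.2 and 46.2 CPM in melanoma replicate 1, and no other library exceeded 25.6 CPM for Tgtp1 or 18.0 CPM for Tgtp2. Gbp6, Tgtp1 and Tgtp2 were picked for their values.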

How the data were processed

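Extraction used an RNeasy Micro kit (Qiagen), per the labels' protocols, and full-length cDNA was amplified with SMART-Seq v4 chemistry (Takara), which does not mark strand. Trimmomatic 0.38 and the mm10 build were used, per the submitters' processing notes. The sources used here name no aligner, counter or normalization. The authors deposited raw counts per gene and normalized values on a log2 scale, which scattered less across libraries (median SD ratio 0.674 to log2(CPM + 1)), so these log2 values served only as an alternative. Of 26608 entries, 25 whose symbols had become dates (0.174% to 0.236% of counts) were left out. Counts were tested with edgeR 4.0.16 (TMM, filterByExpr, robust quasi-likelihood, 2 groups, no covariates, two-sided) in R 4.3.3, with Benjamini-Hochberg adjustment over 13453 genes and a threshold of 0.05; the script was first tested on simulated data. CPM values use TMM-adjusted library sizes. The common biological coefficient of variation was 0.749, which sets the precision. Alternatives used limma 3.58.1, DESeq2 1.42.0, other normalizations and filters, a lane term, a replicate block and leaving out each library. The limma-voom fit weighted each library by its estimated quality. Coordinates, exon lengths and 50-base sharing came from GENCODE M21 (GRCm38), and promoters from RefSeq (GRCm38.p6). Values are given for every member past the threshold and, in each list, the 4 with the highest mean CPM and the 2 with the highest absolute fold change; of the other pathway genes, for those past the threshold and the 2 most abundant of each list. Irf7, Isg15, Gbp2, Gbp3 and the untested genes were added after values were seen. The members and lists were chosen with earlier results of these data known. A further allele in the genotype labels is not reported here.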

Additional observations from a re-analysis of the deposited data

Results flagged for a closer look

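Dixon's test asks whether 1 of the 4 melanoma libraries lies apart, by the gap to its nearest neighbour as a share of the group's range. It was run on the CPM, without a log scale, of the 36 tested interferon genes. Chance passes about 1 in 20 for normally distributed values, and whether these CPM are so distributed was not tested. The ratio was above the critical value for 4 libraries in 4 of them. The share over all tested genes was not computed, so the count cannot be read as particular to the interferon genes. Melanoma replicate 1 was the library apart for Gbp4 (ratio 0.866), Ifih1 (0.862) and Ifnar1 (0.848), and melanoma replicate 3 for Isg15 (0.845). In all 4 genes the library apart was the highest.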

How the results depend on the processing

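Calls over all genes depended on the method: 229 in edgeR, 1249 in DESeq2, 356 with the deposited normalized values, 3 with the replicate block, 0 with the lane tag as a term, and 7 to 171 when 1 library was left out. The count of interferon genes past the threshold was 0 in every fit but DESeq2, which gave 1 (Irf1). No pair of libraries with the same replicate number deviated together (r = -0.02, -0.03 and -0.04). These values gave no sign that the numbers pair the samples, though so few pairs cannot exclude it. The median log2 fold change ran from 0.043 to 0.30 for type I-like and from -0.29 to 0.53 for gamma-induced genes when 1 library was left out. With limma-voom and its library weights the gamma-induced median was -0.019. Of 37 genes (the 36 members and Serping1), 18 kept their direction in every alternative and 19 did not. The direction turned with upper-quartile factors for Bst2 (0.031), which moved the median of all genes to 0.11; with limma-voom for Dhx58 (-0.002), Gbp7 (-0.17), Igtp (-0.061), Iigp1 (-0.17) and Ifi47 (-0.45); with the replicate block for Socs1 (-0.094), Dhx58 (-0.003), Irgm1 (0.043) and Ifi47 (-0.25). With the lane term it turned for Ifnar2 (0.054), Stat2 (0.19), Irf9 (0.36), Ifih1 (-0.29), Dhx58 (-0.20), Ifi35 (0.26), Bst2 (0.33), Gbp7 (-0.23) and Irgm1 (0.17), and with the deposited values for Gbp7 (-0.082), Igtp (-0.026), Iigp1 (-0.059) and Ifi47 (-0.012). Leaving out 1 library spread Bst2 from -0.13 to 0.04, Dhx58 from -0.075 to 0.20, Gbp2 from -0.38 to 0.93, Gbp4 from -0.43 to 1.02, Gbp7 from -0.50 to 0.34, Ifi44 from -0.22 to 2.03, Ifi47 from -0.27 to 0.54, Ifih1 from -0.35 to 0.91, Igtp from -0.27 to 0.36, Iigp1 from -0.44 to 0.39, Irgm1 from -0.30 to 0.061, Irgm2 from -0.053 to 0.55, Parp14 from -1.15 to 0.32, Rsad2 from -0.81 to 0.03 and Stat2 from -0.36 to 0.001. The cause was not tested, beyond fewer libraries in the last set.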

Other observations

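Among other genes of the pathway, a few separated the tissues without passing the threshold, and they were picked for their values. Zc3hav1, an antiviral zinc finger protein that binds viral RNA, averaged 23.7 ± 3.42 CPM in melanoma (SD, n = 4) and 12.5 ± 1.03 CPM in naive skin (SD, n = 3), with an adjusted p of 0.128 in edgeR. Lgals3bp, a secreted galectin-binding glycoprotein, averaged 25.5 ± 3.91 CPM in melanoma and 10.7 ± 5.54 CPM in naive skin. Irf3, the factor that starts type I interferon transcription, averaged 71.9 ± 8.53 CPM in melanoma and 49.3 ± 6.31 CPM in naive skin. Jak2, the kinase carried by IFNGR2, averaged 63.5 ± 14.1 CPM in melanoma and 107 ± 17.7 CPM in naive skin, the opposite direction to Ifngr2 in these libraries. Trim21, a cytosolic antibody receptor, averaged 9.30 ± 4.07 CPM in melanoma and 19.1 ± 2.49 CPM in naive skin. For all 5 the groups did not overlap, as for 18% of all tested genes.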
